A study of Mus musculus with 8 samples.

Results

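The insulin-like growth factor (IGF) genes described here are 10 genes chosen by name, with earlier results of these data known. They are the ligand gene *Igf1*, the receptor gene *Igf1r*, the binding protein genes *Igfbp2* to *Igfbp7*, and the adaptor genes *Irs1* and *Irs2*. All 10 of them were found among the 33971 genes of the count table, and all 10 were among the 19367 genes that passed the filter on low counts. They were measured in whole brains of wild-type (WT) mouse embryos at E14.5, with 4 brains from dams fed a choline-deficient diet (CDD) and 4 brains from dams fed normal chow (ND). Both parents were WT in both groups, and messenger RNA selected by its poly-A tail was sequenced in bulk. The study sequenced these brains to set them beside brains lacking *Mfsd7c*, asking whether a lack of choline would resemble the loss of that transporter, and those other brains were not analysed here. The series' design text starts the diets on the day of mating, whereas a table legend of the study places the start before mating, and the strain, the sex of the embryos and the number of dams and litters are not given in the sources used here. The p-values below therefore measure the spread between these brains, which may share dams.

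IGF ligands are secreted growth factors that bind the IGF1 receptor, a tyrosine kinase at the cell surface. The activated receptor recruits the insulin receptor substrates, docking proteins that pass the signal to PI3 kinase, Akt and mTOR and to Ras and the MAP kinases, and in the embryo the pathway is known for promoting growth, proliferation and survival, in the brain as elsewhere. Secreted IGF binding proteins hold most of the ligand outside cells, where they prolong its life and keep it from the receptor until proteases release it.

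The brains held between 31770217 and 43121170 counted reads, and the counts named below are reads per gene. Marker genes of neural progenitors and of postmitotic neurons were high in all 8 brains, as in brain tissue. CPM is the count relative to the TMM-scaled library size, scaled to counts per megaread. Of the markers of caudal hindbrain and spinal cord, all of them Hox genes, CDD replicate 2 held 111 CPM in sum and the other 7 brains at most 0.453 CPM. This library, CDD replicate 2, stands apart in these Hox genes, and results are given without it where the call changes. Over all genes, CDD replicate 4 differed most from the ND brains. Its chi-square per degree of freedom, between the counts of 2 brains, was 21.4 to 30.8 against the ND brains. For CDD replicate 2 this was 11.8 to 18.5.

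Some of these marker lists differed in summed level between the diets. In bulk tissue, a difference in cells and one in RNA per cell cannot be told apart. The 10 neural progenitor markers summed to 2077 to 2405 CPM in CDD and to 1842 to 1962 CPM in ND brains, with every CDD brain above every ND brain. By edgeR's test 5 of the 10 were higher in CDD brains (*Pax6*, *Nes*, *Vim*, *Mki67* and *Top2a*, named after their values were seen). The 10 neuronal markers summed to 6199 to 6858 CPM in CDD and 6320 to 6578 CPM in ND brains, which overlapped, and 2 of them (*Snap25* and *Gap43*) were lower. The sum of a skeletal muscle and cartilage list also separated, at 184 to 193 CPM in CDD against 148 to 183 CPM in ND brains. Most of it came from *Col2a1* (means of 116 CPM in CDD and 99.5 CPM in ND brains) and *Sox9* (68.6 and 59.4 CPM). These were the 2 of its 5 tested genes that were higher. *Acta1*, *Myh3* and *Tnnt1* did not pass, and *Myod1*, *Myog*, *Actc1*, *Acan* and *Matn1* were removed as low. The genes of this list were named after their values were seen. The part of these differences in the results for the IGF genes was not tested.

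The levels of the 10 genes were compared with one another per kilobase of listed gene length (RPKM), since longer genes collect more reads. *Igfbp2* was at the top with 85.0 ± 4.62 RPKM (SD, n = 8), and its lowest brain (75.7 RPKM) lay above the highest brain of every other member. *Igfbp5* (28.1 ± 2.27 RPKM) and *Igfbp4* (25.5 ± 0.909 RPKM) came next and overlapped with each other. Binding protein genes thus held the first 4 places, with *Igfbp7* in the fourth.

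Below them stood *Igf1r* at 13.2 ± 0.866 RPKM (SD, n = 8), which overlapped with *Igfbp7* at 16.3 ± 1.48 RPKM. The docking protein genes *Irs2* (10.2 ± 0.463 RPKM) and *Irs1* (5.27 ± 0.470 RPKM) did not overlap with each other, and both overlapped with *Igfbp3* (7.57 ± 1.83 RPKM), which lay between them. The ligand gene *Igf1* was at 1.07 ± 0.164 RPKM, so its receptor's transcript was the more abundant in every brain. *Igfbp6*, whose product prefers IGF2 over IGF1, was lowest at 0.619 ± 0.261 RPKM and overlapped with *Igf1*.

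**Figure D1:**
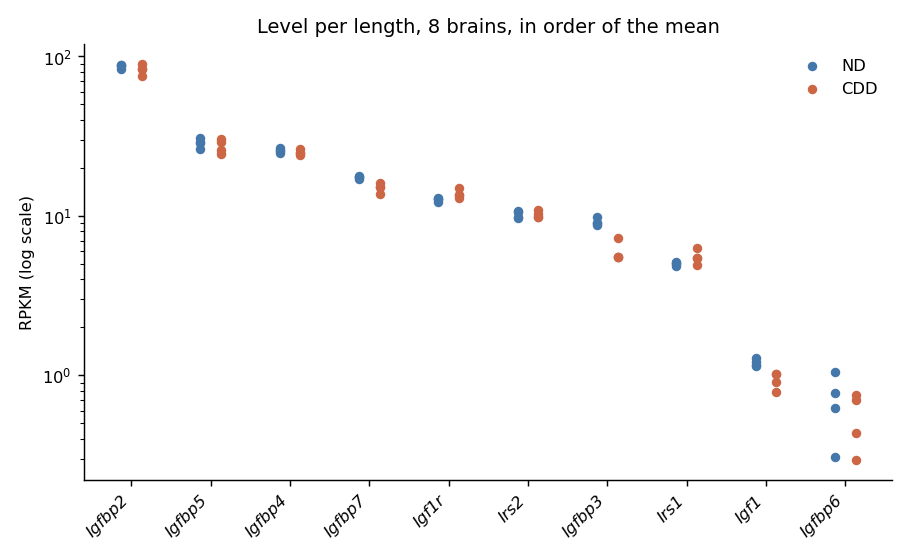
Level per kilobase of listed gene length (RPKM, log axis) of the 10 genes in each of the 8 brains, in order of the mean; each point is a brain, blue for ND and orange for CDD. *Igfbp2* stands above all other members, *Igf1* and *Igfbp6* stand below all others, and the diets separate for *Igf1*, *Igfbp3* and *Igfbp7*.

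Of the 10 genes, 3 were lower in CDD brains when edgeR's quasi-likelihood test was read at an adjusted p-value under 0.05: the ligand gene *Igf1* and the binding protein genes *Igfbp3* and *Igfbp7*. Over all 19367 genes tested, 8.83% passed this threshold, 4.24% higher and 4.59% lower in CDD brains. By the same edgeR test, 0 of the 10 were higher, also with DESeq2 and with limma-voom, and 2 (*Igf1r* and *Irs1*) were higher at an unadjusted p-value under 0.05. The median log2 fold change of the 10 genes (CDD over ND) was -0.06, beside -0.0038 over all genes tested. The same 3 genes were the ones whose brains did not overlap between the diets, all with the CDD brains lower. Over all genes tested, the brains did not overlap in 15.0%, 7.65% with CDD higher and 7.39% with CDD lower. Without CDD replicate 1, ND replicate 1, ND replicate 3 or ND replicate 4, the count of members past the threshold was 1, and that gene was *Igfbp3*. The share of all genes tested that passed was also smaller in these fits, at 6.14%, 3.50%, 2.40% and 3.13% in that order.

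**Figure D2:**
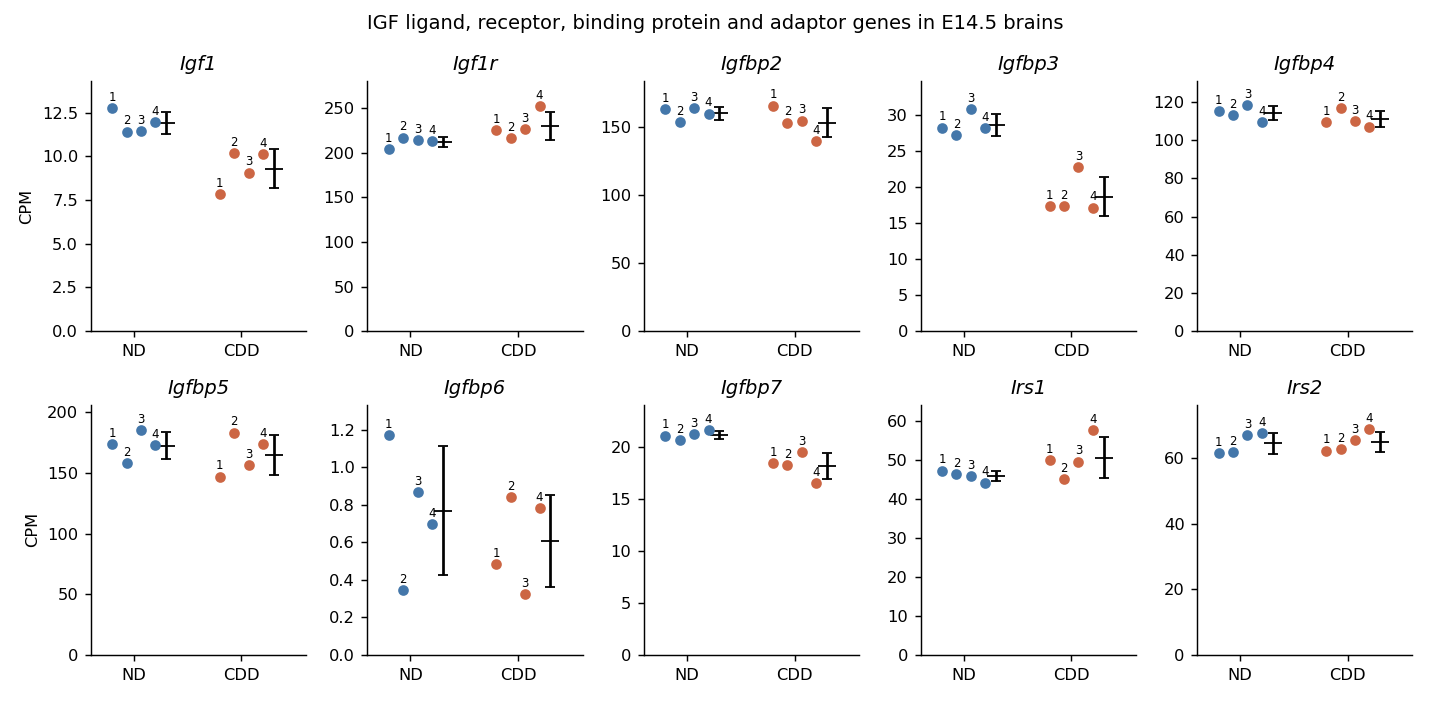
CPM (linear axes from 0) of each of the 10 genes in ND (blue) and CDD (orange) brains; points are brains with their replicate numbers, and the black marks give mean ± SD (n = 4). Every CDD brain lies below every ND brain for *Igf1*, *Igfbp3* and *Igfbp7*, and the diets overlap for the other genes.

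*Igf1* (ENSMUSG00000020053, chromosome 10, 87694127 to 87772904, plus strand) encodes the ligand IGF1. Gene positions are those of the deposited table, whose genome build is not named. *Igf1* was at 7.82, 10.2, 9.06 and 10.1 CPM in CDD replicates 1 to 4, and at 12.8, 11.4, 11.4 and 11.97 CPM in ND replicates 1 to 4. All CDD brains were below all ND brains, with CDD replicate 1 the lowest. The means were 9.30 ± 1.11 CPM in CDD and 11.9 ± 0.627 CPM in ND brains (SD, n = 4 each), a log2 fold change of -0.36 (standard error, SE, 0.0906, edgeR adjusted p = 0.0204). The level therefore fell by 21.9%. The counts behind these values were 259 to 436 reads per brain. In bulk tissue, fewer cells that express a gene and less RNA per cell cannot be told apart, which holds for every fall named here.

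The call of *Igf1* was lost without CDD replicate 1 (log2 fold change -0.28, edgeR adjusted p = 0.0619), ND replicate 1 (-0.32, 0.0888), ND replicate 3 (-0.37, 0.0608) or ND replicate 4 (-0.35, 0.0678), and it was kept in the 8 alternatives that used all brains.

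*Igf1* is also known as a transcript of microglia and macrophages, so their 12 markers were read beside it. The summed level of this list was 79.8 to 87.4 CPM in CDD and 88.9 to 105 CPM in ND brains, with every CDD brain below every ND brain. Of the 12, 3 passed edgeR's threshold, all of them lower (*C1qc*, *Mrc1* and *Cd163*, named after their values were seen), and no marker was at 0 in all brains. The first 2 genes of the list, *Csf1r* and *Cx3cr1*, had log2 fold changes of -0.18 (edgeR adjusted p = 0.103) and -0.03 (adjusted p = 0.885). The part of these cells in the *Igf1* result was not tested.

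The receptor gene *Igf1r* (ENSMUSG00000005533, chromosome 7, 67602575 to 67883416, plus strand) was at 226, 216, 227 and 252 CPM in CDD replicates 1 to 4, and at 204, 217, 214 and 213 CPM in ND replicates 1 to 4. The diets overlapped, and CDD replicate 4 was the highest brain. The means were 230.3 ± 15.5 and 212 ± 5.54 CPM (SD, n = 4 each), a log2 fold change of 0.12 that did not pass the threshold (95% interval 0.0173 to 0.221, edgeR adjusted p = 0.136). It passed in 0 of the 16 alternatives, which gave log2 fold changes of 0.07 (without CDD replicate 4) to 0.15.

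*Igfbp3* (ENSMUSG00000020427, chromosome 11, 7156086 to 7163923, minus strand) encodes the main carrier of IGFs in the blood of adults. It was the member that changed most among those past the threshold, at 17.4, 17.4, 22.8 and 17.2 CPM in CDD replicates 1 to 4 and at 28.3, 27.3, 30.9 and 28.3 CPM in ND replicates 1 to 4. The lowest ND brain was above the highest CDD brain, and 3 of the CDD brains lay close together while CDD replicate 3 lay nearer to the ND brains. The means were 18.7 ± 2.74 CPM in CDD and 28.7 ± 1.52 CPM in ND brains (SD, n = 4 each), a fall of 0.62 on the log2 scale (log2 fold change -0.62, 95% interval -0.79 to -0.44, edgeR adjusted p = 7.78e-04). The level fell by 34.7%, and by its p-value *Igfbp3* ranked 16 among the 19367 genes tested. The counts were 570 to 1068 reads per brain. The gene passed the threshold in all 16 alternatives, with log2 fold changes of -0.73 (without CDD replicate 3) to -0.58.

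*Igfbp3* and *Igfbp4* are set side by side here because both have a TATA box close before their start and only the first passed the threshold between the diets. The sequences are the 80 bases before the RefSeq start in the GRCm38.p6 build, 5′ to 3′ on the strand of the gene, with the TATA box (TATAAA or TATATA) in capitals.
*Igfbp3* promoter, chr11:7213924-7214003, minus strand: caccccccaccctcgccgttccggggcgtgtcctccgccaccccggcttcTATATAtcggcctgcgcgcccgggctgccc
*Igfbp4* promoter, chr11:99041164-99041243, plus strand: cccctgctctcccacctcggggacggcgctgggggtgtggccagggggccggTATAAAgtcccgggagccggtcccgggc
The box begins at position -30 in *Igfbp3* and at -28 in *Igfbp4*, counted back from the start site. Among the 11 RefSeq promoters of the 10 members (*Igfbp2* has 2), 3 held such a box on either strand in the 250 bases before the start, the third being that of *Igfbp6*, and 15.6% of 32851 mouse promoters did. A match of letters is a description of this window only.

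*Igfbp3* and *Igfbp7* are known transcripts of vessels and of the tissue around them, and markers of these cells were read beside both. The endothelial list of 12 genes summed to 387 to 422 CPM in CDD and 412 to 434 CPM in ND brains, which overlapped, and 1 of the 12 passed edgeR's threshold. This was the tight junction gene *Cldn5*, with a log2 fold change of -0.28 (edgeR adjusted p = 0.00768), whereas *Pecam1* had one of 0.09 (adjusted p = 0.412). The mural cell list of 8 genes summed to 261 to 277 CPM in CDD and 262 to 279.6 CPM in ND brains. Of these, *Rgs5* was lower (log2 fold change -0.18, edgeR adjusted p = 0.0268) and *Notch3* higher (0.17, adjusted p = 0.0253), and *Pdgfrb*, the first gene of the list, did not pass (-0.0023, adjusted p = 0.987). *Notch3* was also the largest term of the sum, with means of 96.8 CPM in CDD and 86.0 CPM in ND brains. The other mural genes had log2 fold changes of -0.24 to -0.0023, and the median of the 8 was -0.19.

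Meningeal fibroblast markers, 12 genes, summed to 799 to 869 CPM in CDD and 827 to 934 CPM in ND brains, which overlapped. The largest term of this sum was *Zic1*, with means of 317 CPM in CDD and 299 CPM in ND brains (log2 fold change 0.09, edgeR adjusted p = 0.248). The median log2 fold change of the 12 genes was -0.14. By edgeR's test 4 of the 12 were lower, the collagen genes *Col1a1* (log2 fold change -0.23) and *Col1a2* (-0.23) together with *Aldh1a2* (-0.50) and *Slc6a13* (-0.57). In the other direction 2 were higher, *Lum* (0.29) and *Crabp2* (0.38). The genes of these lists other than the first 2 of each were named after their values were seen. No marker of the 3 lists was at 0 in all brains, and the part of these cells in the results for *Igfbp3* and *Igfbp7* was not tested.

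*Igfbp7* (ENSMUSG00000036256, chromosome 5, 77497087 to 77555888, minus strand) encodes a secreted protein related to the IGF binding proteins that binds IGFs weakly. It was at 18.4, 18.3, 19.5 and 16.5 CPM in CDD replicates 1 to 4, and at 21.1, 20.6, 21.2 and 21.6 CPM in ND replicates 1 to 4. Every CDD brain was below every ND brain, with the highest CDD and the lowest ND brain close to each other. The means were 18.2 ± 1.25 CPM in CDD and 21.1 ± 0.398 CPM in ND brains (SD, n = 4 each), a log2 fold change of -0.22 (SE 0.0657, edgeR adjusted p = 0.0470). The level fell by 13.9%.

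This call lay near the threshold. It was kept in 5 of 16 alternatives and in 1 of the 8 that left out a brain (without CDD replicate 3). Without CDD replicate 2, the edgeR adjusted p was 0.0745 at a log2 fold change of -0.22. The listed span of *Igfbp7* also shares 85 bases with *Polr2b* on the opposite strand, a gene with 34240 counts over the 8 brains against 5486 for *Igfbp7*, and whether counting used the strand is not given in the sources used here. *Polr2b* itself was higher in CDD brains (log2 fold change 0.18, edgeR adjusted p = 0.0100), and its part in the *Igfbp7* result was not tested.

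The promoter of *Igfbp7* is shown because, unlike that of *Igfbp3*, it holds no TATA box and has GC boxes (GGGCGG, or CCGCCC where the box is on the other strand), here in capitals in the 80 bases before its RefSeq start (GRCm38.p6).
*Igfbp7* promoter, chr5:77408046-77408125, minus strand: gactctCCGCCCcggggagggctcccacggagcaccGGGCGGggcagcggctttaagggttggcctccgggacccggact
In the 250 bases before the start, *Igfbp7* has 4 GC boxes on both strands together. Of the 11 member promoters 5 held at least 1, beside 32.7% of all 32851. The E-box CACGTG was in 3 of 11, those of *Igfbp2*, *Irs1* and *Irs2*, and in 6.02% of all promoters. Both of these motifs contain the letters CG. The member windows held this pair 5 to 42 times, beside a median of 6 over all promoters, and its part in these shares was not tested. The RefSeq start of *Igf1* lies 2846 bases inside its GENCODE M21 gene and its window overlaps exons there, so it is not shown.

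The binding protein gene *Igfbp2* (ENSMUSG00000039323, chromosome 1, 72863662 to 72891633, plus strand) did not pass the threshold. Its product is a binding protein abundant in fetal tissues. It was at 166, 154, 155 and 140 CPM in CDD replicates 1 to 4 and at 164, 154, 164 and 160.2 CPM in ND replicates 1 to 4, and the ranges overlapped. This gave a log2 fold change of -0.06 (95% interval -0.16 to 0.04, edgeR adjusted p = 0.462). *Igfbp2* is also a known transcript of the choroid plexus, whose 8 markers summed to 563, 377, 341 and 243 CPM in CDD replicates 1 to 4 and to 339 to 376 CPM in ND brains. CDD replicate 1 was the highest and CDD replicate 4 the lowest of the 8 brains for both. Most of the marker sum came from *Ttr*, at 277 ± 120 CPM in CDD and 272 ± 18.3 CPM in ND brains (SD, n = 4 each). The first 2 genes of the list, *Ttr* and *Folr1*, had log2 fold changes of 0.03 and 0.09 (edgeR adjusted p = 0.972 and 0.778), 1 of the 8 passed the threshold (*Otx2*, higher, named after its values were seen), no marker was at 0 in all brains, and the part of the choroid plexus in the spread of *Igfbp2* was not tested. The next gene on chromosome 1, *Igfbp5* (ENSMUSG00000026185, 72897091 to 72914043, minus strand), lies 5457 bases away with 0 listed genes between them. *Igfbp5* was at 147, 183, 157 and 174 CPM in CDD replicates 1 to 4 and at 174, 158, 186 and 173 CPM in ND replicates 1 to 4, so the diets overlapped (log2 fold change -0.06, 95% interval -0.20 to 0.07, edgeR adjusted p = 0.602).

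*Igfbp4* (ENSMUSG00000017493, chromosome 11, 98932070 to 98945218, plus strand), whose product is cut by the protease PAPP-A, was at 107 to 117 CPM in CDD and 109.6 to 118 CPM in ND brains. The log2 fold change was -0.04, with a 95% interval of -0.13 to 0.05 (edgeR adjusted p = 0.602). The intervals of *Igfbp2*, *Igfbp4* and *Igfbp5* therefore lie wholly above that of *Igfbp3*, although the difference between genes was not tested. *Igfbp6* (ENSMUSG00000023046, chromosome 15, 102052797 to 102057946, plus strand) had 14 to 29 counts in CDD and 11 to 40 counts in ND brains, or 0.608 ± 0.245 and 0.769 ± 0.345 CPM (SD, n = 4 each). Its log2 fold change was -0.36, with a 95% interval of -1.11 to 0.38 (edgeR adjusted p = 0.582), an interval that includes a change of the size seen for *Igfbp3*. The value moved with single brains, to -0.09 without ND replicate 1, -0.13 without CDD replicate 3, -0.57 without CDD replicate 2 and -0.60 without ND replicate 2.

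**Figure D3:**
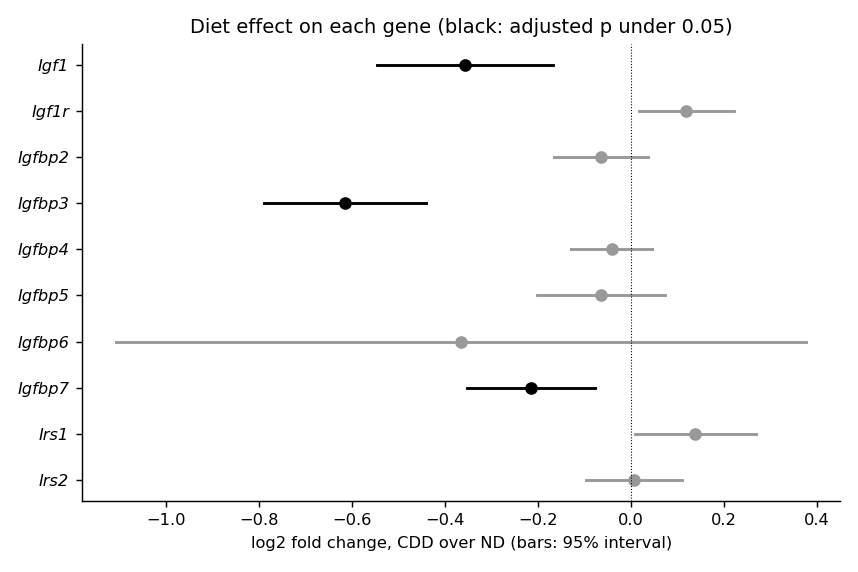
Log2 fold change of CDD over ND for each of the 10 genes (points) with its 95% interval from edgeR's fit (bars); black marks genes with an adjusted p-value under 0.05. *Igf1*, *Igfbp3* and *Igfbp7* lie below 0, the interval of *Igfbp6* is the widest, and those of *Igf1r* and *Irs1* lie above 0 without passing the threshold after adjustment.

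The binding protein transcripts that belong to the family proper, *Igfbp2* to *Igfbp6*, summed to 142 ± 5.08 RPKM in CDD and 151 ± 5.56 RPKM in ND brains (SD, n = 4 each), and the brains overlapped. *Igfbp2* made up 58.4% ± 2.64 of this sum in CDD and 57.4% ± 0.609 in ND brains. The share of *Igfbp3* was 3.82, 3.80, 5.11 and 4.07% in CDD replicates 1 to 4 and 5.89, 6.05, 6.27 and 6.03% in ND replicates 1 to 4. Each CDD brain thus had a smaller share of *Igfbp3* than each ND brain, with means of 4.20% ± 0.619 and 6.06% ± 0.160 (SD, n = 4 each). These shares are of transcripts per length, not of protein.

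The adaptor genes stayed below the threshold. *Irs1* (ENSMUSG00000055980, chromosome 1, 82210822 to 82269137, minus strand) was at 49.9, 45.1, 49.5 and 57.6 CPM in CDD replicates 1 to 4, and at 47.2, 46.4, 45.7 and 44.2 CPM in ND replicates 1 to 4. CDD replicate 4 was the highest brain, as for *Igf1r*, and CDD replicate 2 lay within the ND range. The log2 fold change was 0.14 (95% interval 0.00886 to 0.27, edgeR adjusted p = 0.177), and without CDD replicate 4 it was 0.07. *Irs2* (ENSMUSG00000038894, chromosome 8, 11034681 to 11058458, minus strand) was at 62.2 to 68.9 CPM in CDD and 61.6 to 67.5 CPM in ND brains. Its log2 fold change of 0.01 had a 95% interval of -0.10 to 0.11 (edgeR adjusted p = 0.952), and the diets overlapped.

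The other genes of the pathway were read from a list of 66 genes, also chosen with earlier results of these data known. Of these, 65 were in the table and 61 were tested. In edgeR's test 4 of the 61 were higher in CDD brains, beside 4.24% of all genes, and 0 were lower, beside 4.59%. DESeq2 and limma-voom also called 0 lower, and at an unadjusted p-value under 0.05 edgeR gave 12 higher and 8 lower. The median log2 fold change of the 61 was 0.02. Without ND replicate 1, ND replicate 3 or ND replicate 4 the count was 2 (*Grb10* and *Inppl1*), and without CDD replicate 3 it was 11, with 8 higher and 3 lower. These counts moved with those over all genes, of which 3.50%, 2.40% and 3.13% passed without ND replicates 1, 3 and 4 and 12.7% without CDD replicate 3. The diets did not overlap, in one direction or the other, for 10 of the 61, beside 15.0% of all genes tested. The summed neural progenitor markers, like the 4 genes called, were higher in every CDD brain than in any ND brain. The part of these markers was not tested.

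*Grb10*, an adaptor that binds the IGF1 and insulin receptors and dampens their signal, was at 280.1, 268, 249 and 297 CPM in CDD replicates 1 to 4, and at 227, 232, 209.5 and 209 CPM in ND replicates 1 to 4. All CDD brains were above all ND brains. The log2 fold change was 0.32 (SE 0.0543, edgeR adjusted p = 0.00221). *Inppl1*, which encodes the lipid phosphatase SHIP2 that removes a phosphate from the lipid product of PI3 kinase, was at 53.7 to 57.8 CPM in CDD and 44.4 to 50.9 CPM in ND brains. The log2 fold change was 0.25 (SE 0.0525, edgeR adjusted p = 0.00651). Both genes passed the threshold in all 16 alternatives. The span of *Inppl1* overlaps *Phox2a* and *Gm10602* on the opposite strand, which had 149 and 167 counts over the 8 brains against 14335 for *Inppl1*.

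*Pappa*, the gene of the protease PAPP-A that cuts the IGFBP4 protein, was at 6.57 to 9.08 CPM in CDD and 5.09 to 6.31 CPM in ND brains. The log2 fold change was 0.38 (SE 0.116, edgeR adjusted p = 0.0453), and the call was kept in 8 of 16 alternatives. *Nras*, a Ras protein gene, was at 155 to 196 CPM in CDD and 143 to 152 CPM in ND brains. It had a log2 fold change of 0.22 (edgeR adjusted p = 0.0289) and passed in 12 of 16. The diets did not overlap for either gene. Without CDD replicate 2, which stands apart in Hox genes, neither passed (log2 fold changes of 0.39 and 0.22, edgeR adjusted p = 0.0765 and 0.0587). Without CDD replicate 4, *Nras* had a log2 fold change of 0.14, still past the threshold (edgeR adjusted p = 0.0274). *Nras* lost the call without ND replicates 1, 3 or 4 as well, and *Pappa* without any of these or CDD replicates 1 or 4.

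The second ligand gene, *Igf2*, did not pass, at 13.6, 11.9, 9.97 and 11.1 CPM in CDD replicates 1 to 4 and 14.7, 11.2, 16.1 and 14.2 CPM in ND replicates 1 to 4. ND replicate 2 lay within the CDD range. The log2 fold change was -0.28 (95% interval -0.51 to -0.05, edgeR adjusted p = 0.122), and the gene passed in 2 of 16 alternatives, without ND replicate 2 (-0.37) and without the filter on low counts (-0.28, edgeR adjusted p = 0.0216). Per length *Igf2* was above *Igf1* in every brain, at 1.74 to 2.81 RPKM against 0.789 to 1.29 RPKM.

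The insulin receptor gene *Insr* had a log2 fold change of 0.08 (95% interval -0.00314 to 0.17, edgeR adjusted p = 0.229). *Igf2r*, whose product takes up IGF2 for breakdown, had one of 0.13 (adjusted p = 0.135), and it passed in 1 of 16 alternatives, without CDD replicate 2. *Igfbpl1*, a relative of the binding proteins, was the most abundant of these per length at 132 ± 6.58 RPKM (SD, n = 8), above *Igfbp2* in every brain, with a log2 fold change of -0.04 (edgeR adjusted p = 0.703).

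**Figure D4:**
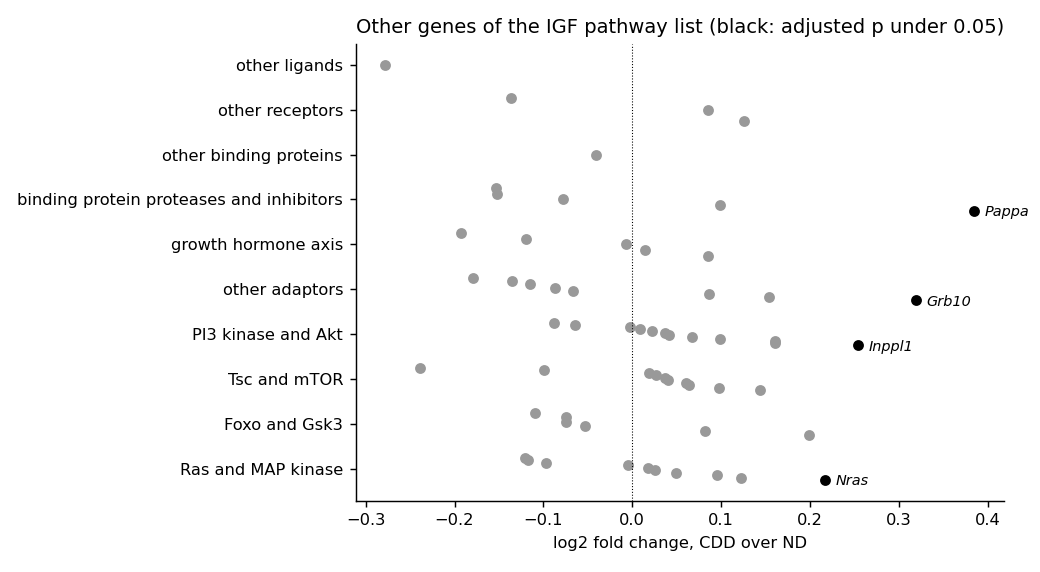
Log2 fold change of CDD over ND for the 61 tested genes of the pathway list, each point a gene, by role; black marks genes past edgeR's threshold. The 4 black points, *Pappa*, *Grb10*, *Inppl1* and *Nras*, lie to the right of 0, and the other genes lie on both sides of it.

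The 3 members past the threshold differed in how their calls depended on the brains and settings. *Igfbp3* was called in 16 of 16 alternatives, *Igf1* in 12 and *Igfbp7* in 5, while the direction of all 3 was lower in CDD brains in every alternative.

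**Figure D5:**
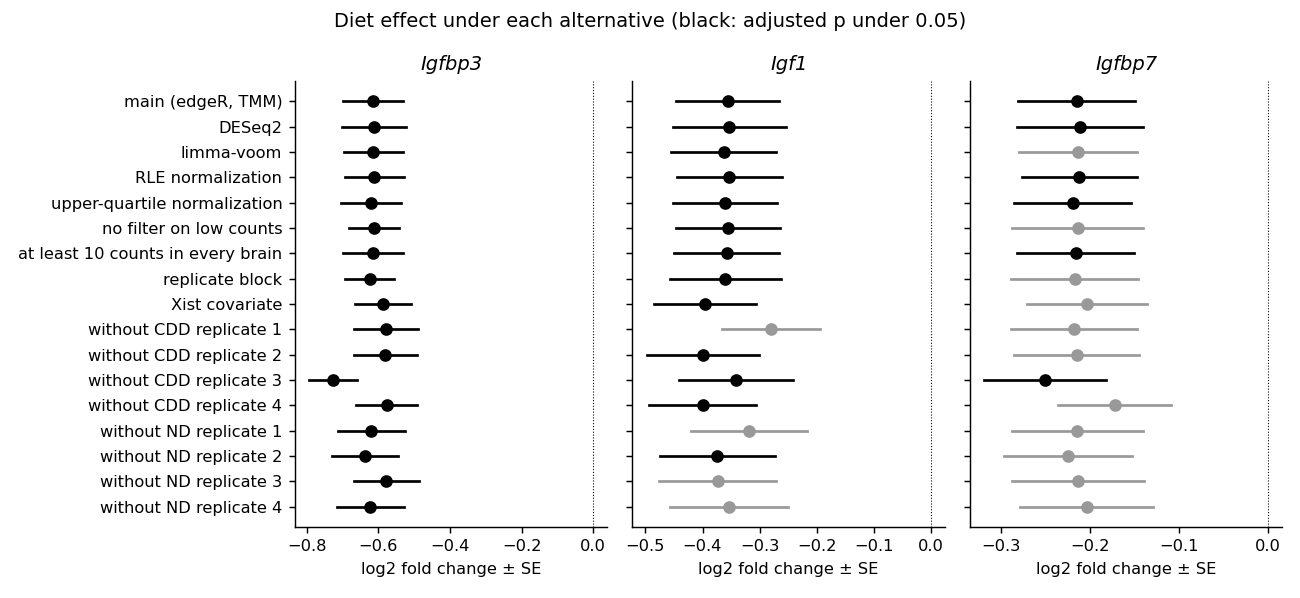
Log2 fold change of CDD over ND (point) ± standard error (bar) of *Igfbp3*, *Igf1* and *Igfbp7* in the reported fit and in the 16 alternatives, with a separate horizontal scale for each gene; black marks an adjusted p-value under 0.05. All points lie below 0, and grey points are 0 for *Igfbp3*, 4 for *Igf1* and 11 for *Igfbp7*.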

How the data were processed

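RNA was extracted with a Qiagen RNeasy kit and sequenced by a company on an Illumina platform. The authors deposited raw counts per gene and brain, and FPKM values scaled with the listed gene length. The submitters' processing notes name HISAT2 2.0.5, featureCounts 1.5.0-p3 and DESeq2 1.20.0, without roles. The aligner's settings, the strand setting and the genome build are not given in the sources used here: 2.14% of the 32185 gene identifiers shared with GENCODE M21 have the same start there. Columns of the authors' own comparison (fold changes and p-values) were not used.

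Raw counts were filtered with filterByExpr of edgeR 4.0.16, scaled by TMM and tested with the robust quasi-likelihood test (two-sided), with diet as the single term and Benjamini-Hochberg adjustment over the 19367 genes tested. RPKM is the scaled CPM divided by gene length. Depth was 32706627 to 43121170 counts in CDD and 31770217 to 34399295 in ND brains, and the common biological coefficient of variation was 0.0814. The test was first tried on simulated counts. No pair of brains had counts within sampling noise of each other. Members and lists were chosen with earlier results of these data known. Named genes are all 10 members, pathway genes past the threshold, *Igf2*, *Insr*, *Igf2r*, *Igfbpl1* and the first 2 markers of each list set beside a member.

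The 16 alternatives were DESeq2 1.42.0, limma-voom (limma 3.58.1), RLE and upper-quartile normalization, a fit without the low-count filter, a minimum of 10 counts in each brain, a block for the replicate number, *Xist* as a covariate, and each of the 8 brains left out. For levels, the deposited FPKM was the alternative, which shares the counts and listed gene lengths and differs in the scaling alone. R 4.3.3, Python 3.11.15, pandas 2.3.3 and matplotlib 3.10.9 were used. Promoters are from RefSeq (GRCm38.p6), where 10 of 10 members matched by symbol.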

Additional observations from a re-analysis of the deposited data

Results flagged for a closer look

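*Igfbp3* was at 22.8 CPM in CDD replicate 3, whereas the other CDD brains were at 17.2 to 17.4 CPM, and that brain lay far from the others of its group. It remained below all ND brains, and without it the log2 fold change was -0.73 against -0.62 with it. In all, 36 groups of 4 brains were examined in this way and 1 held such a brain, where about 1.8 would by chance (about 1 in 20).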

How the results depend on the processing

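*Igfbp3* kept its call and direction in all 16 alternatives, and *Igf1r*, *Igfbp2*, *Igfbp4*, *Igfbp5*, *Igfbp6*, *Irs1* and *Irs2* passed the threshold in 0 of 16. For *Igfbp6*, DESeq2 gave no adjusted p-value (unadjusted p = 0.370). *Igfbp7* was no longer past the threshold with limma-voom (log2 fold change -0.21, adjusted p = 0.0513), without a filter on low counts (-0.21, 0.0519 with edgeR) and with *Xist* as a covariate (-0.20, 0.0576). Deviations of same-numbered CDD and ND brains correlated at 0.173, -0.262, 0.197 and 0.321, and those of differently numbered brains at -0.371 to 0.330. So few values cannot settle whether the replicate numbers pair the brains. With the replicate number as a block, 1812 genes passed, and *Igfbp7* did not (-0.22, adjusted p = 0.0589 with edgeR), the block changing no other call of a member. When single brains were left out, the log2 fold change lay between -0.40 and -0.28 for *Igf1*, between -0.25 and -0.17 for *Igfbp7*, and between -0.024 and 0.030 for *Irs2*. *Irs2* turned to -0.0073 with the *Xist* covariate and was negative without CDD replicate 4 (-0.024), ND replicate 1 (-0.012) or ND replicate 2 (-0.011). The cause was not tested.

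Between 1 and 3 members passed when a brain was left out. Over all genes, 471 to 2495 passed instead of 1710 (204 to 1222 higher and 267 to 1273 lower), with 688 without ND replicate 1, 471 without ND replicate 3 and 615 without ND replicate 4. Of the pathway list, 2 to 11 passed (2 to 8 higher, 0 to 3 lower), and 8 without a filter on low counts (7 higher and 1, *Igf2*, lower). The order of the levels was made from 1 length per gene. The deposited FPKM moved each member's level by less than 1 SD, but it rests on the same counts and listed lengths. It therefore cannot test the order or its dependence on length. *Igfbp6*, with at most 40 counts in a brain, lay between -0.60 and -0.09 when single brains were left out.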

Other observations

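Genes of the pathway list that did not pass the filter on low counts belong to no comparison. *Igfbp1*, which lies next to *Igfbp3* on chromosome 11, had 0, 3, 5 and 0 counts in CDD replicates 1 to 4 and 4, 8, 2 and 8 counts in ND replicates 1 to 4. The insulin gene *Ins2* had 4 to 9 counts in CDD and 2 to 7 counts in ND brains. *Igfals*, whose product joins IGFBP3 and IGF1 in a complex of the blood, had 0 to 8 counts per brain. *Irs3* had 0 to 5 counts per brain. These genes were named after their values were seen.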
